A study of Mus musculus with 217 samples.

Results

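Growth plate chondrocytes with high Fos were compared with chondrocytes with little or no Fos. The profiles were chosen by Fos itself: deposited columns that correlated above r = 0.95 were averaged as repeats of 1 profile, 1 mixed column (Cell_204) was left out, and profiles with an Acan log2 value of at least 5 were kept as chondrocytes. The chondrocyte profiles were then ranked by Fos, and the highest 44 (Fos-high) were set against the lowest 44 (Fos-low). These 88 profiles come from a series of 217 deposited columns. Another 88 chondrocyte profiles lie between the groups and are called the middle profiles, and 11 distinct profiles fell below the Acan minimum. The study measured polyA RNA in single cells of the tibial growth plate, taken by microdissection at postnatal day 7 from mice of the C57/BL strain with the wild-type genotype. Every cell carries the same labels, with no treatment and no named animal, litter or plate. All cells were therefore 1 sample of 1 group, and each SD below is a spread over profiles, not over animals. No test was possible, so a difference is given as the mean log2 value in Fos-high minus that in Fos-low profiles, and it counts as higher or lower from 1.5 upwards in either direction.

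Immediate-early genes are transcribed within minutes of a stimulus, from factors that are already present in the cell, and their RNAs are short-lived. Fos is the textbook member: its protein pairs with Jun proteins to form the AP-1 transcription factor, while Egr1, Nr4a1 and the Klf genes encode further factors of the same wave and Dusp1 encodes a phosphatase that switches off the kinases upstream. In cartilage, Fos has been studied mainly in the passage of chondrocytes to hypertrophy, the stage marked by type X collagen (Col10a1). Fos, Jun, Egr1 and Atf3 are also known to be induced while a tissue is taken apart into single cells.

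The promoter sequences of 6 genes named in the results are shown first. Egr1 is not among them, because no window was given for it. The cAMP response elements (CREs) and the AP-1 element are among the textbook sites through which immediate-early factors are switched on and act. The first 5 genes were higher in Fos-high profiles or, for Fos, chose them, and F3 had the most negative difference. Each line holds the 250 bases before the start of the RefSeq transcript (GRCm38.p6), 5′ to 3′ on the strand of the gene, and capitals mark the motifs found.
Fos: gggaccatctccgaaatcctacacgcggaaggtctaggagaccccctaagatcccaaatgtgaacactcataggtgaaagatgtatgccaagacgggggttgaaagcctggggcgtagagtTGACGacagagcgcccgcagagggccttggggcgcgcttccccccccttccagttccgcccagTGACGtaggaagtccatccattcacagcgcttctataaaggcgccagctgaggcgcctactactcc
Fosb: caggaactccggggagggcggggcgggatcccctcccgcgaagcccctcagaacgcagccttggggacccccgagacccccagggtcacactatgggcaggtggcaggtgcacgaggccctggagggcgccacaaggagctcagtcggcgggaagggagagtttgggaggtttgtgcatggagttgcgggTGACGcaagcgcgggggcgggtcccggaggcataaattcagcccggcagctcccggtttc
Atf3: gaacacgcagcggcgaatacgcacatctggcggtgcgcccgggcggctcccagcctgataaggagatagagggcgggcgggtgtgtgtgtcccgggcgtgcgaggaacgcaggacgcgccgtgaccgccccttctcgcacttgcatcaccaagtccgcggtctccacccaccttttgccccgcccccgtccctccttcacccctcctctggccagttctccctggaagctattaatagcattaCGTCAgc
Nr4a1: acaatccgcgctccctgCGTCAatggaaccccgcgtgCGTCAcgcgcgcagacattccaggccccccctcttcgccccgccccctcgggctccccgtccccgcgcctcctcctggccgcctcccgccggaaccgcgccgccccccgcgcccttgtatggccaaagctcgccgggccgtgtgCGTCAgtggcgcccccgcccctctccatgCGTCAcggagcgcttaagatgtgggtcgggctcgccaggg
Dusp1: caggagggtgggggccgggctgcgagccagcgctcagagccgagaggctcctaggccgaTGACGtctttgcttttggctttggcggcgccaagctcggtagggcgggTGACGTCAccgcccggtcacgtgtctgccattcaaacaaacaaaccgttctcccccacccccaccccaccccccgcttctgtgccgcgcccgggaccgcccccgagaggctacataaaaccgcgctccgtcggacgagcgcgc
F3: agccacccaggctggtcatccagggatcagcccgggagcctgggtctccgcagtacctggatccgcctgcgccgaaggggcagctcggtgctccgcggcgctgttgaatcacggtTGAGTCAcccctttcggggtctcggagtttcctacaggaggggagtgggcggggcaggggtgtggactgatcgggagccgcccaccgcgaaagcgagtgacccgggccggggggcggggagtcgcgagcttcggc
The windows lie at chr12:85473640-85473889 on the plus strand for Fos, chr7:19310046-19310295 on the minus strand for Fosb, chr1:191183334-191183583 on the minus strand for Atf3, chr15:101266596-101266845 on the plus strand for Nr4a1, chr17:26508473-26508722 on the minus strand for Dusp1 and chr3:121723287-121723536 on the plus strand for F3. All are upstream of the first exon. The motifs were searched on both strands as letters: the short CRE TGACG, the palindromic CRE TGACGTCA, which contains the short one, and the AP-1 element as TGACTCA or TGAGTCA. The serum response element (the CArG box) was searched as CCWWWWWWGG, where W is A or T. The Fos window holds the short CRE at 2 places, the nearer of them 66 to 62 bases before the start. The Fosb window holds it from 60 to 56, the Atf3 window, on the other strand, from 7 to 3, and the Nr4a1 window at 4 places, all on the other strand. The palindromic CRE stands in the Dusp1 window, with a further short CRE upstream of it. The F3 window holds no CRE of either form and has 1 AP-1 element.

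A window was given for 36 of the 45 immediate-early genes listed here, Fos included. None was given for Egr1, Ier2, Klf10, Cyr61, Fosl1, Zfp36l2, Trib1, Arc and Ctgf. The shares thus leave out Egr1 and other genes that were higher in Fos-high profiles. A gene was counted once, as having a motif if any of its windows held it. The short CRE was found for 21 of these 36 genes (58.3%). It was found for 35.5% of the 4104 genes with a window that passed the filter on low values. Of all 27025 genes with a window, 19.8% had it. The palindromic CRE was found for 4 of the 36 (11.1%), against 3.44% of the filtered genes and 1.77% of all genes with a window. The serum response element (the CArG box) was in 3 of 36 (8.33%), against 1.39% and 1.62%. The Fos window holds none, but a site more than 250 bases before the start of any gene would have been missed. The AP-1 element was in 1 of 36 (2.78%), against 3.41% and 5.16%. Both comparison sets include the listed genes themselves. The shares describe the sequences, the AP-1 one rests on 1 gene, and none of them says which factor was bound in these cells.

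Both groups had the RNA of cartilage cells. Acan, the large proteoglycan of cartilage, was 9.34 ± 0.80 (SD, 44 profiles) in Fos-high and 8.93 ± 0.86 in Fos-low profiles, and Sox9, the master regulator of chondrocytes, was detected in all 44 of each group. A gene counts as detected when its value, taken off the log scale, is 1 or more. Of 21 chondrocyte markers measured, a median of 18 (15 to 19) were detected in a Fos-high and 17 (9 to 20) in a Fos-low profile. Col2a1, the defining collagen of cartilage, was near 0 in both groups (0.58 ± 0.90 and 0.48 ± 0.67) and detected in 11 of 44 profiles each, although its partner chains Col9a1 and Col11a1 stood at 10.01 and 10.92 in Fos-high profiles. The Sox9 partner genes Sox5, detected in 4 Fos-high and 5 Fos-low profiles, and Sox6, detected in 1 Fos-high profile and no Fos-low profile, fell below the filter. Of the chondrocyte list, 19 genes passed the filter, none differed by 1.5, and the median difference was 0.08. Atf3, the second marker given for the Fos-high state, was detected in 37 of 44 Fos-high profiles (84.1%, 95% exact Clopper-Pearson interval 69.9 to 93.4) and in 22 of 44 Fos-low profiles (34.6 to 65.4%), so the 2 markers went together only in part. These intervals cover counting error only.

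Sequencing depth is unknown, since the values were scaled before deposit, and the number of detected genes stands in for it below. The file holds 23 sets of near-identical columns (52 columns, lowest r within a set 0.964, highest r of any other pair 0.686), averaged here; 8 sets lie in the Fos-high and 4 in the Fos-low group. The pooled SD between such repeats was 0.26 for Fos, 0.47 for Atf3, 0.18 for Egr1 and 0.61 for Col10a1, small beside the SD of 3.27 for Fos over all chondrocyte profiles. No doublet caller was run.

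Fos filled a wide range within chondrocytes of 1 tissue and age. Fos-high profiles ran from 8.69 through a median of 9.31 to 11.45, and Fos-low profiles from 0 through a median of 0 to 4.02. In the Fos-low group 25 of 44 profiles had Fos at exactly 0, and every profile with Fos at 0 lies in that group. The middle profiles had a mean of 7.03 ± 1.08. There was no gap at either limit: the last profile inside the Fos-low group stood at 4.02 and the next at 4.41, and the first inside the Fos-high group at 8.69 with 8.67 just outside. At these edges Egr1 was 7.25 just inside and 8.74 just outside the Fos-low limit, and 8.53 just inside and 9.76 just outside the Fos-high limit. These values chose the profiles and are a description.

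**Figure D1:**
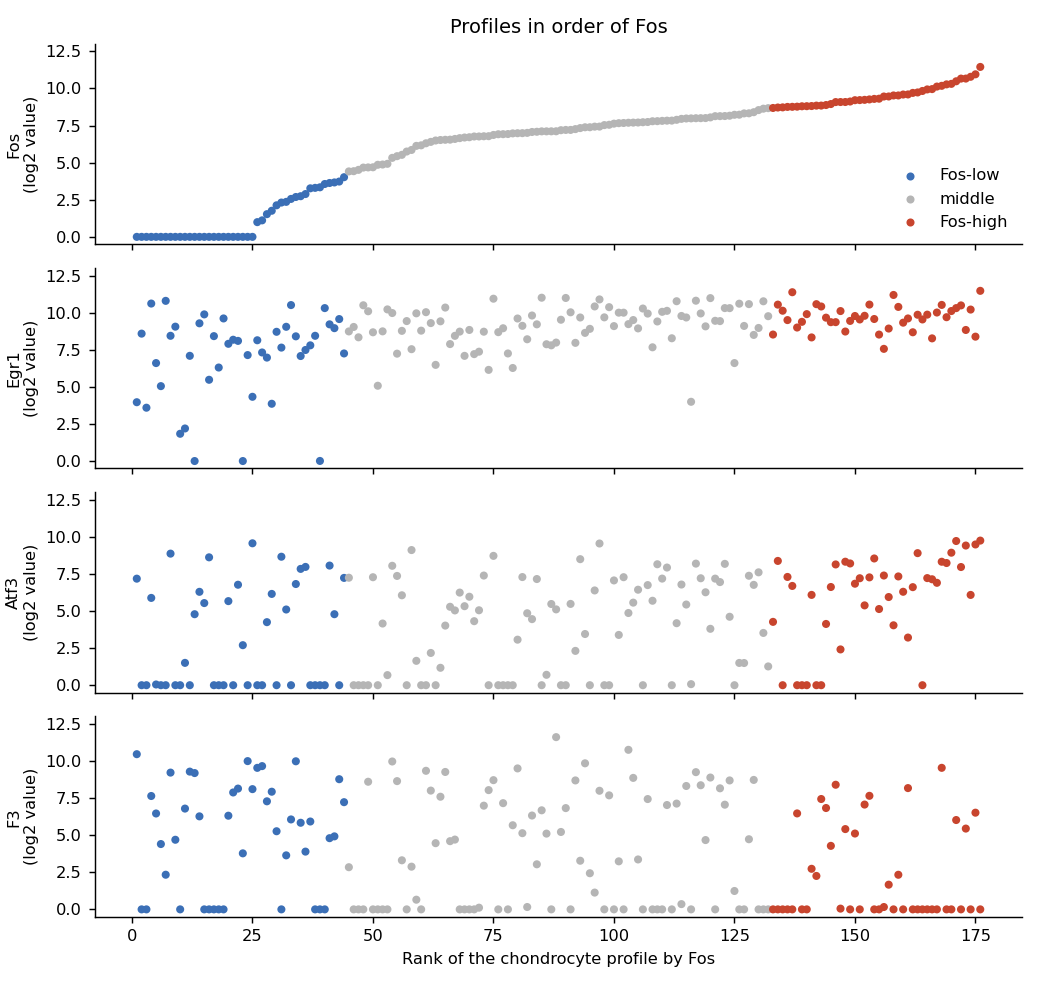
All chondrocyte profiles in order of Fos (x axis, rank), with the log2 value of Fos, Egr1, Atf3 and F3 on the y axes; blue points are Fos-low, grey middle and red Fos-high profiles. Egr1 is scattered down to 0 at the left and stays at or above 7.56 among Fos-high profiles, Atf3 is spread over the whole order, and F3 is at 0 in many Fos-high profiles.

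Fosb, Atf3 and Fosl2 were the AP-1 genes besides Fos that were higher in Fos-high profiles. Of 12 listed, 6 besides Fos passed the filter (detection in at least 20% of the chondrocyte profiles, which 5380 genes met), and 3 of these 6 were higher by 1.5 or more and none lower. Over all 5380 genes, 4.98% were higher and 0.335% lower by that amount, Fos among the higher ones. The median difference of the 6 was 1.65, beside 0.39 for all genes. Fosb, a close relative of Fos that also pairs with Jun, ran from 1.19 through 6.24 to 8.65 in Fos-high and from 0 through 3.86 to 7.70 in Fos-low profiles (lowest, median, highest). It was detected in all 44 Fos-high and 35 Fos-low profiles, the ranges overlapped, and the difference was 2.31. Atf3, a stress-responsive partner of Jun proteins, ran from 0 through 6.87 to 9.75 and from 0 through 0.78 to 9.56, a difference of 2.72. The groups overlapped over their whole range and differed chiefly in how many profiles had any Atf3. Fosl2 differed by 1.82 and Jun, the partner of Fos within AP-1, by 1.48 (4.39 ± 1.82 against 2.91 ± 1.74). Fosl1 (0.02) and the small Maf protein gene Mafk (-0.39) did not follow. Junb, below the filter and named for its place in AP-1, was detected in 13 Fos-high and 2 Fos-low profiles.

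Egr1 separated the groups by floor more than by ceiling. It encodes a zinc finger factor of the same wave as Fos. It ran from 7.56 through 9.68 to 11.47 in Fos-high profiles and from 0 through 7.85 to 10.80 in Fos-low profiles, with means of 9.67 ± 0.85 and 7.03 ± 2.88 and a difference of 2.64. Thus 41 of 44 Fos-low profiles still held Egr1 RNA, and none of the Fos-high profiles had little of it. Of the 13 EGR, NR4A and KLF genes that passed the filter, 5 were higher by 1.5 and none lower, with a median difference of 1.22. Over all genes 4.98% were higher, 0.335% were lower and the median was 0.39. Ier2, a short-lived nuclear protein gene, was detected in 29 Fos-high profiles (65.9%) and 8 Fos-low profiles (18.2%) and differed by 2.19. Klf10, a Krüppel-like repressor induced by TGF-β, differed by 2.19. Nr4a1, an orphan nuclear receptor, was detected in 27 Fos-high profiles (61.4%) and 7 Fos-low profiles (15.9%) and differed by 1.97, and Klf2 differed by 1.62. Egr2 was 1.46 and Klf4 1.22 higher. Ier3 (-0.62) and Ier5 (-0.23) were at similar levels in both groups.

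**Figure D2:**
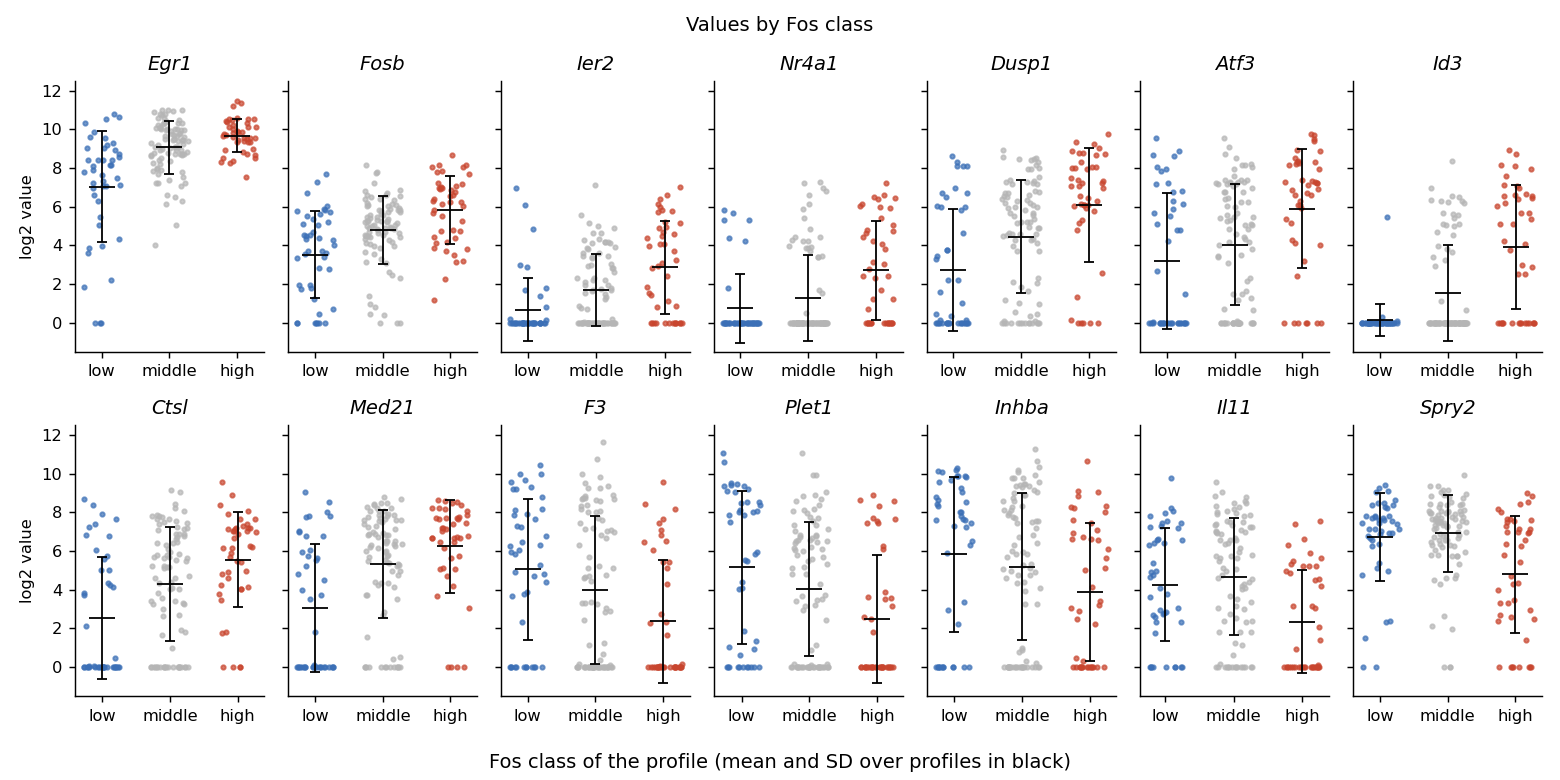
Log2 values of 14 genes in each Fos-low (blue, 44), middle (grey, 88) and Fos-high (red, 44) profile, with the mean and SD over profiles in black. Most genes overlap between the classes and differ in how many profiles lie at 0; Id3 is detected in 1 Fos-low profile and 29 Fos-high profiles.

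The effectors of the response were mixed. The median difference of the 18 effector and mRNA decay genes that passed the filter was 0.50, beside 0.39 for all genes. None of them was lower by 1.5 and 3 were higher, beside 0.335% and 4.98% of all genes. The 3 were Gadd45g (2.35), a stress sensor, Cyr61 (1.74), a matricellular protein gene, and Zfp36 (1.70), whose product degrades short-lived mRNAs. Its relative Zfp36l1 differed by 1.46. Plk2 (-1.04) and the antiproliferative gene Btg3 (-1.16) were on the lower side. Over the AP-1, EGR/NR4A/KLF and effector lists together, Fos left out, 37 genes passed the filter, 11 were higher by 1.5, none was lower, and the median difference was 1.02.

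The feedback arms did not move as a block. Dusp1, the MAP kinase phosphatase, differed by 3.39: it ran from 0 through 7.01 to 9.77 in Fos-high and from 0 through 0.73 to 8.62 in Fos-low profiles. It was detected in 38 Fos-high and 22 Fos-low profiles, and the ranges overlapped. Spry2, an antagonist of growth factor signalling through ERK, went the other way, with 4.78 ± 3.03 against 6.71 ± 2.28 and a difference of -1.93. The remaining 9 of the 11 DUSP, SPRY, SPRED and ETV genes that passed lay between Dusp14 (1.13) and Dusp6 (-0.39), and the median of the list was 0.02. Among 7 NF-κB genes, Nfkbia, the inhibitor that NF-κB itself induces, differed by 2.39, and none of the others reached 1.5.

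The immediate-early genes shared the profiles only loosely. For each of the 37 genes, a profile was scored as above or not above the gene's own median over all chondrocyte profiles. A Fos-high profile was above the median for 20.4 ± 5.21 genes (8 to 30, median 20), a middle profile for 16.8 ± 5.16, and a Fos-low profile for 14.1 ± 4.05 (7 to 27, median 14). The groups overlapped widely, and 5 Fos-high profiles exceeded the highest Fos-low profile. As a share of the 37 genes these means are 55.2%, 45.4% and 38%. Over all genes that passed the filter the same share was 48.1% ± 8.28, 44% ± 7.01 and 38.7% ± 9.02. The share thus fell in the same order over all genes, and the difference between the 2 sets was not tested. Spearman's rho between pairs of the 37 genes had a median of 0.076 over all chondrocyte profiles and 0.091 within the Fos-high group, against 0.030 and 0.024 over all pairs of filtered genes. These weak values, across profiles that share 1 sample and 1 scaling, are a description. The 44 immediate-early genes measured, Fos left out, made up 0.863% of the back-transformed total in a Fos-high, 0.795% in a middle and 0.623% in a Fos-low profile on average.

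Fos-high profiles had more Col10a1 RNA than Fos-low profiles on average. No position within the growth plate is named for any cell. Col10a1, the collagen of hypertrophic cartilage, ran from 0 through 10.68 to 14.62 in Fos-high and from 0 through 3.46 to 12.47 in Fos-low profiles, a difference of 3.89, which was the highest of any gene besides Fos. It was detected in 38 of 44 Fos-high profiles (86.4%, 72.6 to 94.8) and 28 of 44 Fos-low profiles (63.6%, 47.8 to 77.6). The number of detected genes differed as well: 3729.6 ± 584.5 (2383 to 4994) in Fos-high, 3419.4 ± 457.1 in middle and 3040.8 ± 609.1 (1326 to 4461) in Fos-low profiles. Over all chondrocyte profiles, Fos had a Spearman rho of 0.34 with Col10a1 and 0.39 with the number of detected genes, and these had a rho of 0.33 with each other. Fos, zone and detection thus came together in these profiles, and the following comparisons hold 1 or both of the latter level.

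**Figure D3:**
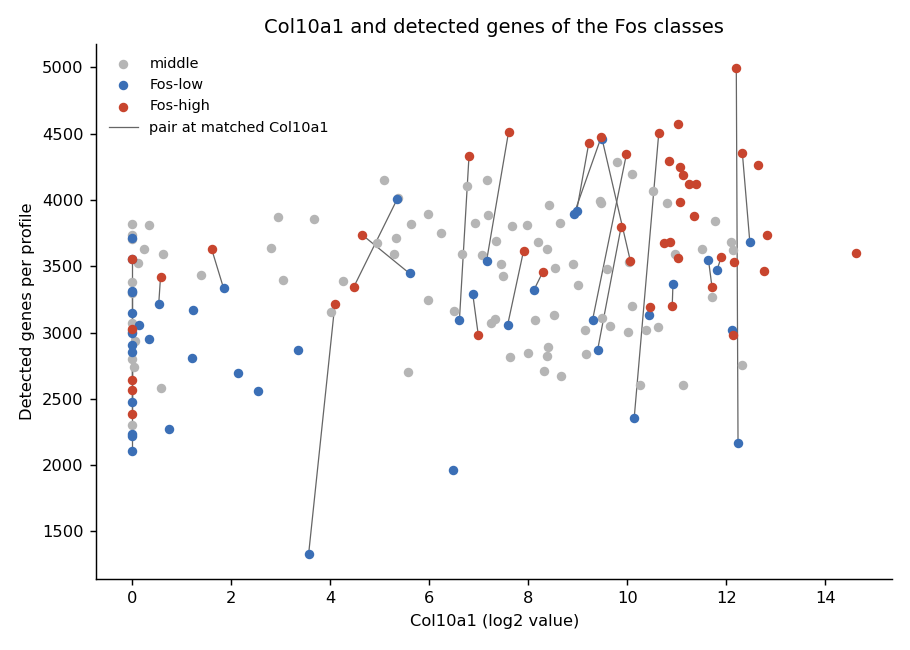
Col10a1 (x axis, log2 value) against the number of detected genes (y axis) in the chondrocyte profiles; grey lines join the 28 Fos-high and Fos-low profiles paired within 1 log2 of Col10a1. Paired profiles lie close together along the x axis, and on the y axis the Fos-high members have a mean of 3613.1 detected genes against 3152.6 in the Fos-low members.

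With Col10a1 held level, 9 of the 37 immediate-early genes were higher by 1.5. Each Fos-high profile was paired with 1 Fos-low profile within 1 log2 of Col10a1, which gave 28 pairs with mean Col10a1 of 6.92 and 6.82. In these pairs 3.05% of the 5380 genes were higher and 0.483% lower by at least 1.5. Of the immediate-early genes none was lower by 1.5, and their median was 0.81, beside 0.27 for all genes. Btg1, Btg2, Btg3, Plk2, Sgk1, Mafk and Trib1 were below 0. Egr1 was higher by 2.65 on average and in 24 of the 28 pairs. Ier2 was higher by 1.95 (19 pairs), Jun by 1.58 (19 pairs) and Fosb by 1.57 (20 pairs). Of the feedback genes, Dusp1 was higher by 3.22 (21 pairs) and Nfkbia by 2.43 (18 pairs). The differences of Egr1 and Dusp1 were thus about as large as without matching. Atf3 was otherwise: its difference was 1.44, with 15 pairs higher and 8 lower, where the unmatched difference was 2.72. Nr4a1 stood at 1.45 with 14 pairs higher and 4 lower.

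The pairs still differed by detected genes, 3613.1 ± 665.6 against 3152.6 ± 645.9. Adding a limit of 300 detected genes left 19 pairs, with means of 3332.9 and 3327.4 genes and Col10a1 of 6.28 and 6.18. The median over all genes was then 0.00, and the calls were even in both directions: 2.38% of genes were higher and 2.57% lower by 1.5. Of the 37 immediate-early genes, 5 were higher and none lower, with a median of 0.50. The 5 were Egr1 (2.12), Ier2 (1.86), Jun (1.84), Zfp36l1 (1.64) and Egr2 (1.55), and Dusp1, outside these lists, differed by 2.86. Egr2 passed the 20% filter only through the Fos-high group, being detected in 18 of 88 middle and 6 of 44 Fos-low profiles. Fosb (1.09), Nr4a1 (1.12), Klf10 (0.98) and Atf3 (1.21) stayed on the higher side and no longer reached 1.5. The AP-1 list had a median of 0.99, the EGR, NR4A and KLF list 0.63, and the effectors 0.05.

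A regression over all chondrocyte profiles, with Col10a1, the number of detected genes and the Fos class as terms, uses every profile. It called 0.725% of genes higher and 1.26% lower by 1.5, with a median of -0.01 over all genes. Of the 37 immediate-early genes, 4 were higher, 1 was lower and the median was 0.43. The 4 were Egr1 (2.56), Klf10 (1.64), Gadd45g (1.60) and Cyr61 (1.57), and the 1 was Plk2 (-2.0). Ier2 (1.48) and Fosb (1.43) stood just under the limit and Atf3 at 0.91. Dusp1, counted with the feedback genes, differed by 2.11 and Nfkbia by 1.84. Egr1 was thus the immediate-early factor with differences above 2 in all 4 comparisons.

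**Figure D4:**
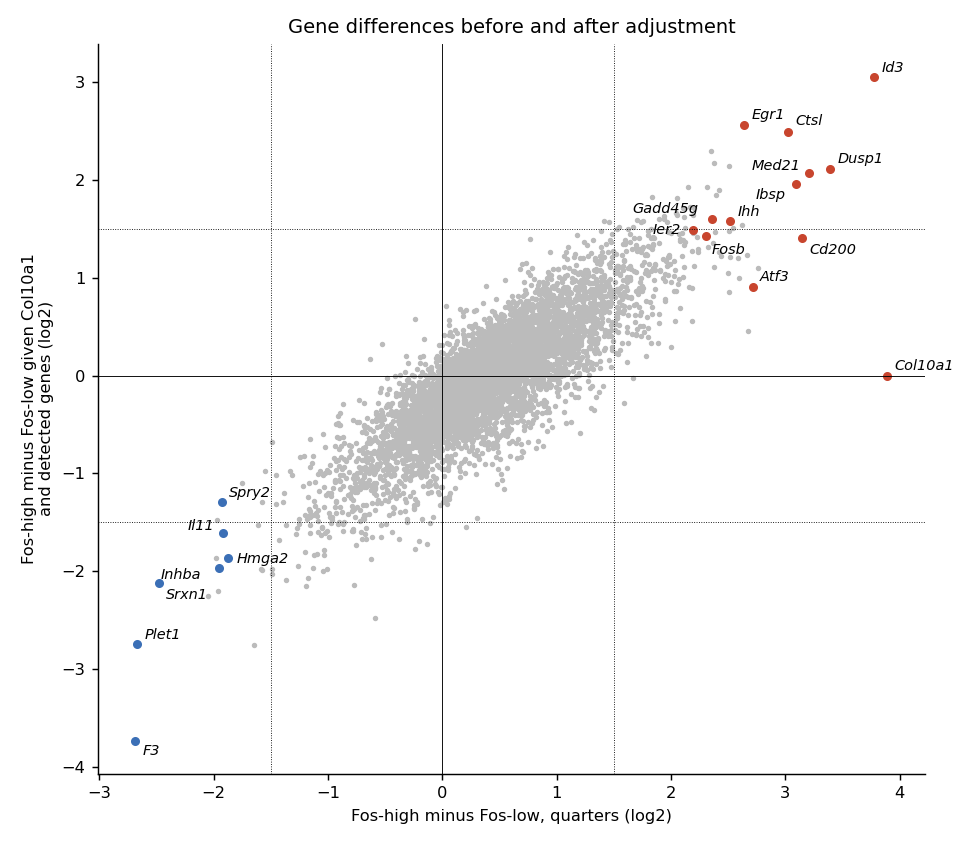
Each point is 1 of the genes that passed the filter, with the Fos-high minus Fos-low difference (log2) on the x axis and the same difference given Col10a1 and detected genes, from the regression, on the y axis; dotted lines mark 1.5 in either direction. Id3 and Egr1 stay high on both axes, Col10a1 goes to 0 by construction, and F3 is lowest on both.

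The share of Fos-high profiles was also counted by Col10a1 level, which is RNA and not a measured position. Among the 39 profiles without detected Col10a1, 6 were Fos-high (15.4%, 95% exact interval 5.86 to 30.5) and 16 Fos-low. Among the 55 with Col10a1 detected below 8, 8 were Fos-high (14.5%, 6.5 to 26.7) and 14 Fos-low. Among the 82 at 8 and above, 30 were Fos-high (36.6%, 26.2 to 48) and 14 Fos-low. Fos-high profiles were present at every level and took their largest share where Col10a1 was high.

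Some genes went with Fos at every Col10a1 level and others only at some. Egr1 was higher by 3.27 without Col10a1, by 2.88 at the intermediate level and by 2.12 at 8 and above. Fosb (1.89, 1.61 and 2.03), Ctsl (4.10, 2.95 and 2.32) and Med21 (2.13, 4.40 and 2.59) were also higher at all 3 levels. Dusp1 differed by 2.66, 1.56 and 4.39. Atf3 was uneven: 2.72, -0.55 and 2.01. So were Nr4a1 (-0.66, 1.58 and 2.45), Jun (2.06, 0.10 and 2.10), Gadd45g (2.18, -0.13 and 3.20) and Zfp36 (0.08, 1.07 and 1.78). The immediate-early genes Ier2, Klf10 and Cyr61 were above 0 at all 3 levels. Ctsd differed by -0.26, 2.43 and 2.40. Id3 differed by 0.95, 2.0 and 4.89, Ibsp by 0.52, 3.28 and 3.31, and Nfkbia by -0.27, 2.84 and 3.52. F3 was alike without Col10a1 (0.50) and lower at both other levels (-4.06 and -3.50), whereas Inhba was lower without Col10a1 (-3.51) and close to even at the others (-0.49 and -0.37). The median number of detected genes was 2835.5 in Fos-high and 2976 in Fos-low profiles without Col10a1. It was 3625 and 3075 at the intermediate level, and 3837 and 3347 at 8 and above. The levels thus differ in detection as well as in Col10a1, and the 2 cannot be told apart here. The groups hold 6 to 30 profiles per level, and differences between levels were not tested.

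Id3 differed more than any gene after Fos and Col10a1. Id proteins hold back basic helix-loop-helix factors and are textbook targets of BMP signalling. Id3 was detected in 29 of 44 Fos-high profiles (65.9%, 50.1 to 79.5), where it ran from 0 through 4.66 to 8.92, and in 1 of 44 Fos-low profiles (2.27%, 0.0575 to 12). Its difference was 3.77 between the groups, 3.10 in the Col10a1 pairs (higher in 16, lower in 1), 2.46 in the pairs matched on both measures and 3.05 in the regression. Id1 differed by 2.04, 1.72, 1.97 and 1.66 in the same order, and Id2 by 2.02, 1.65, 1.49 and 1.17. Of 12 BMP pathway genes that passed, these 3 were higher by 1.5 and none was lower, beside 4.98% and 0.335% of all genes. The others included the inhibitory Smad gene Smad7 (1.29), the pseudoreceptor gene Bambi (1.22), the ligands Bmp6 (1.34) and Bmp2 (1.21) and the receptor gene Bmpr2 (1.16). At matched Col10a1, Bmp2 was at -0.29 and Bmp6 at 0.43, far below the Id genes.

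Some genes of late growth plate stages were higher in Fos-high profiles, among them Ihh and Ibsp. Of 8 prehypertrophic genes, 4 were higher by 1.5 and none lower. Their median of 1.49 went to 0.74 in the Col10a1 pairs and 0.53 in the pairs matched on both. Over all genes 4.98% were higher and 0.335% lower between the groups, and the medians were 0.39, 0.27 and -0.003. Ihh, which encodes the growth plate's hedgehog ligand, was detected in 24 Fos-high and 8 Fos-low profiles, and its difference of 2.52 became 1.73, 0.87 and 1.58 (Col10a1 pairs, pairs on both, regression). The transcription factor genes Mef2c (1.86), Foxa2 (1.78) and Sp7 (1.64) were lower in size after matching, at 1.34, 0.94 and 1.29 in the Col10a1 pairs. Of 8 hypertrophic genes, Col10a1 included, 4 were higher by 1.5 and none lower. Ibsp, bone sialoprotein, was detected in 23 Fos-high profiles (52.3%, 36.7 to 67.5) and 4 Fos-low profiles (9.09%, 2.53 to 21.7), and its difference of 3.09 became 2.38, 1.67 and 1.95. Spp1, osteopontin, differed by 1.64 and then by 1.15, 0.25 and 0.99. Outside the Fos-high group Ibsp (10 of 88 middle and 4 of 44 Fos-low profiles) and Spp1 (17 and 6) fell under the 20% filter. Both thus passed it only through the group in which they were high, and their place in the counts is a description. Panx3 was abundant in both groups (10.34 and 9.64).

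Early-zone genes gave no common direction. Of 6 resting zone genes that passed, only Cd200 reached 1.5, and its difference of 3.15 went to 1.23 at matched Col10a1. The resting zone markers Sfrp5 (-0.32) and Ucma (-0.38) were at like levels. The 4 columnar genes that passed lay between 0.74 for Matn1 and -0.21 for Col9a1. Among 5 hedgehog genes, Ihh and the transducer gene Smo (1.84) were higher, while the pathway target Ptch1 differed by 0.53.

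Markers of osteoblasts moved with Fos. Of 12 osteoblast markers measured, a median of 6 (2 to 11) were detected in a Fos-high and 3.5 (2 to 8) in a Fos-low profile, and together they made up 1.34% (0.375 to 10.4) and 1.10% (0.376 to 3.17) of the back-transformed total. Of 7 that passed the filter, Ibsp, Serpinf1 (1.74), Sp7 and Col1a2 (1.59) were higher by 1.5, where 4.98% of all genes were higher. The median of the list was 1.59, and 1.62, 0.68 and 1.13 in the Col10a1 pairs, the pairs on both and the regression. Over all genes it was 0.39, 0.27, -0.003 and -0.01 in the same order. Ibsp and Sp7 are shared with the hypertrophic and prehypertrophic lists, and Ibsp passed the filter only through the Fos-high group. The part of osteoblast RNA in these differences was not tested.

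The endothelial and blood markers that could be measured were near absent from both groups. Of 7 endothelial markers listed 1 was measured, and of 10 blood and lymphoid markers 1. The endothelial marker measured, Pecam1, was detected in 1 Fos-high and no Fos-low profile. Of 5 macrophage and osteoclast markers, a median of 1 was detected in each group, mostly Ctsk, which was detected in 32 Fos-high and 27 Fos-low profiles, and the list made up a median of 0.0162% and 0.0120% of the total. The blood marker Cd79a was detected in 2 and 1 profiles. The muscle gene Mylpf was detected in 11 Fos-high profiles and 1 Fos-low profile. Of 7 perichondrial and fibroblast markers a median of 3 (1 to 5) and 2 (0 to 5) were detected, with a median share of 0.177% and 0.160% of the total. The 4 of them that passed the filter had a median difference of 0.33, which was 0.91 in the Col10a1 pairs and 0.80 in the pairs on both. Dcn, a small proteoglycan gene of connective tissue, differed by 1.06 between the groups and by 2.0 in the pairs on both. The part of perichondrial RNA in the differences above was not tested. Markers of these types that the table does not hold were not analysed here.

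Dividing cells were few. Mki67, a proliferation marker, was detected in 8 Fos-high and 1 Fos-low profile, and none of the 11 G2/M genes measured passed the filter. Of 5 S phase genes that passed, Slbp, the histone mRNA binding protein gene, was higher by 1.67 and none was lower by 1.5. Over all genes 4.98% were higher and 0.335% lower. The S phase median was 0.66, 0.92 in the Col10a1 pairs and -0.03 in the pairs matched on both, beside 0.39, 0.27 and -0.003 for all genes.

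Of 13 proteases and inhibitors that passed the filter, Ctsl and Ctsd were higher by 1.5 and none was lower, beside 4.98% and 0.335% of all genes. Ctsl, the lysosomal protease cathepsin L, ran from 0 through 6.16 to 9.59 in Fos-high and from 0 through 0.01 to 8.68 in Fos-low profiles, and was detected in 40 and 19 profiles. Its difference was 3.02, and it was 2.49 in the Col10a1 pairs (higher in 19 of 28), 3.39 in the pairs on both and 2.48 in the regression. Ctsd, cathepsin D, differed by 2.24, 2.72, 2.26 and 1.26 in that order. Ctsb (0.57) and Ctsk (0.48), of the same list, did not reach 1.5, and the list median was 0.43, beside 0.39 for all genes. The asparaginyl protease gene Lgmn differed by 2.76 and by 1.37 at matched Col10a1. Med21, a subunit of the Mediator complex, differed by 3.21, 3.52, 3.0 and 2.07. Thus Ctsl and Med21 stayed past 1.5 in all 4 comparisons, as Egr1, Id3 and Dusp1 did.

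Between the groups 18 genes were lower by 1.5, among them F3, Inhba and Il11 of the list of secreted factors. F3, tissue factor, which starts blood clotting and is itself known as a growth-factor-induced gene, ran from 0 through 0 to 9.54 in Fos-high and from 0 through 5.88 to 10.46 in Fos-low profiles. It was detected in 18 Fos-high profiles (40.9%, 26.3 to 56.8) and 32 Fos-low profiles (72.7%, 57.2 to 85). The difference was -2.68, and it was -2.74 in the Col10a1 pairs (lower in 18, higher in 7), -3.32 in the pairs on both and -3.73 in the regression. F3 was thus lower at each matching, most where detected genes were held level. Inhba, the activin A subunit, differed by -1.96, -1.82, -2.25 and -1.96. Il11, a cytokine of the IL-6 family, differed by -1.92, -2.10, -1.20 and -1.61, and was detected in 21 Fos-high and 35 Fos-low profiles. Of 6 secreted factors that passed, these 3 were lower by 1.5, none was higher, and the list median was -1.42. Over all genes 0.335% were lower, 4.98% were higher and the median was 0.39. The EGF family ligand Hbegf differed by -0.93, Bmp2 by 1.21 and Tgfb2 by 0.57.

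Plet1, a surface protein gene, ran from 0 through 0 to 8.90 in Fos-high and from 0 through 5.88 to 11.08 in Fos-low profiles. Its difference was -2.67, and it was -2.12, -1.55 and -2.74 after matching on Col10a1, on both and in the regression. Srxn1, which reduces oxidised peroxiredoxins, was detected in all 44 Fos-low profiles (lowest 3.13) and in 38 Fos-high profiles, with a difference of -2.48 and with 23 of 28 pairs lower. The other 10 genes of its oxidative stress list lay between Hmox1 (1.28) and Sqstm1 (-0.10). The developmental factor genes Sox11 (-1.98) and Hmga2 (-1.88) were lower between the groups. At matched Col10a1, Sox11 stood at -1.67 and Hmga2 at -0.60. Spry2 likewise went from -1.93 to -0.56 in the Col10a1 pairs and -0.47 in the pairs on both, and stood at -1.30 in the regression. Ptgs2, the inducible cyclooxygenase, differed by -1.49, and by -2.31 in the pairs on both.

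Between the groups, each of 5 stress and metabolic lists held at most 1 gene higher by 1.5, where 4.98% of all genes were higher. Of 13 heat shock genes, Dnajb1 differed by 1.92 and the median was 0.06; Hspa8, Hsp90ab1 and Hsp90aa1 differed by 0.13, 0.27 and -0.25. Of 18 ATF4 and unfolded protein response genes, Creld2 differed by 1.90 and the median was 0.52. Of 9 p53 and cell cycle exit genes none reached 1.5, and their median was 0.73, above the 0.39 of all genes; Mdm2, the p53 antagonist, differed by 1.20. Of 15 actin and SRF-MRTF genes, Zyx, a focal adhesion protein gene, differed by 1.74 and the median was 0.30; Actb was 11.57 and 11.68. Of 18 hypoxia and glycolysis genes, the mitophagy receptor gene Bnip3l differed by 1.75 and the median was 0.30. In the Col10a1 pairs 3 of 18 ATF4 and unfolded protein response genes and 2 of 15 actin and SRF-MRTF genes were higher by 1.5. The hypoxia and glycolysis list held 1, the other lists held none, and 3.05% of all genes were higher. The list medians there were 0.16, 0.37, 0.54, 0.20 and 0.27 in the order above, beside 0.27 for all genes. In the pairs matched on both measures the medians of these 5 lists were -0.29, 0.37, 0.26, -0.21 and 0.08.

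**Figure D5:**
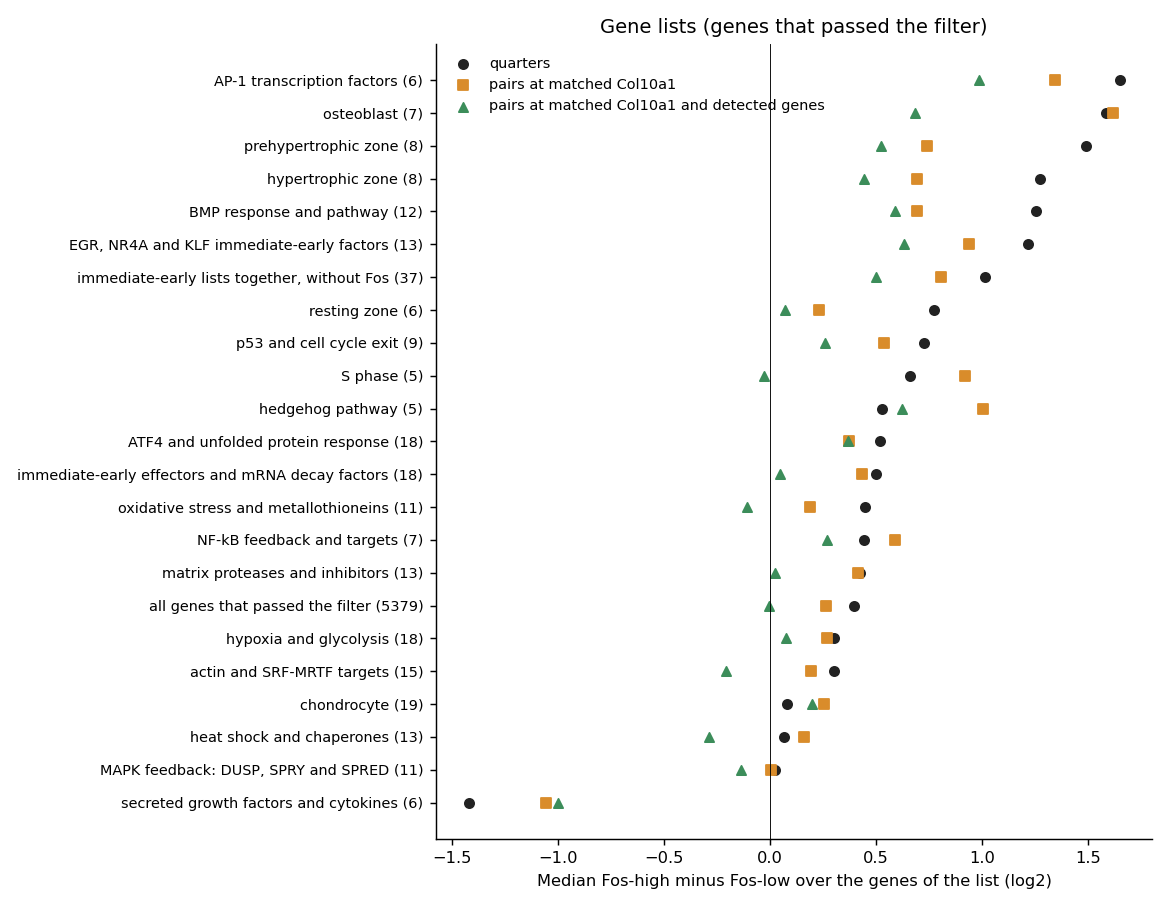
Median Fos-high minus Fos-low difference (x axis, log2) of each gene list with at least 5 genes past the filter (number in brackets), between the groups (circles), in pairs at matched Col10a1 (squares) and in pairs at matched Col10a1 and detected genes (triangles). The AP-1 list stands at 1.65, 1.35 and 0.99, the secreted factors at -1.42, -1.06 and -1.0, and all genes at 0.39, 0.27 and 0.00.

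The 88 middle profiles, which the groups did not use, gave weaker relations with Fos. Their Fos ran from 4.41 to 8.67. Spearman's rho with Fos across them was 0.30 for Egr1, 0.23 for Atf3, 0.18 for Zfp36, 0.17 for Ihh, 0.16 for Ier2 and 0.12 for Fosb. Genes that led the comparison of the groups were close to 0: Id3 0.04, Dusp1 0.01, Ctsl -0.05, Ibsp -0.07, Med21 -0.11, Nfkbia -0.16 and F3 0.06. Plet1 stood at -0.20. Of the 37 immediate-early genes, 25 had a rho above 0 and the median was 0.05. Over all genes that passed the filter, Fos left out, 2681 of 5379 had a rho above 0 and the median was 0.00. Mean levels in the middle profiles lay between the groups for Id3 (1.52), Dusp1 (4.45), Ctsl (4.28) and F3 (3.96), and Egr1 at 9.08 was near the Fos-high mean. The differences above were taken between the ends of the Fos order. Within the middle of it, Egr1 and Atf3 were the only genes named in this paragraph with a rho above 0.20. Fos had an SD of 1.08 there and 3.27 over all chondrocyte profiles, and a narrower range can lower a rho. Whether the relations with Fos were graded was not tested. These correlations are across profiles of 1 sample that share a scaling.

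Ranking the same profiles by Atf3 chose the same cells only in part. The 44 profiles with the highest Atf3 were set against the 51 with Atf3 at 0. Of the 44 Fos-high profiles, 19 were Atf3-high (43.2% of each group) and 7 had Atf3 at 0, and of the 44 Fos-low profiles 21 had Atf3 at 0 (47.7% of the Fos-low and 41.2% of the Atf3-low profiles) and 8 were Atf3-high. Atf3-high profiles were thus more frequent among Fos-high than among Fos-low profiles (19 against 8 of 44). Profiles with Atf3 at 0 were less frequent there (7 against 21 of 44). Both rankings use the same cells, so the values are given side by side without a measure of likeness. Cd200 differed by 3.15 in the Fos and 3.15 in the Atf3 ranking, Ibsp by 3.09 and 2.73, Dusp1 by 3.39 and 2.01, and Srxn1 by -2.48 and -2.08. Egr1 differed by 2.64 and 0.82, Id3 by 3.77 and 1.60, Nfkbia by 2.39 and 0.67 and Cyr61 by 1.74 and -0.05. F3 differed by -2.68 in the Fos ranking and by 0.58 in the Atf3 ranking. Hbegf went from -0.93 to -1.66, and Ddit3, a stress factor gene downstream of ATF4, from 0.23 to 1.21.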

How the data were processed

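RNA of single cells from growth plates of mice at postnatal day 7 was made into full-length polyA cDNA with SMARTer chemistry and Nextera XT libraries, per the labels' protocols. The submitters' processing notes name TopHat and mm10; which quantifier, annotation and filters were used is not stated there. Values were deposited as log2 values, 1 column per cell (217 columns, 9739 genes), with 62.3% at exactly 0, which can be a failed estimate. A base of 2 and a pseudocount of 1 were inferred from the values: back-transformed totals ran from 394406 to 616257, so the authors had scaled them and depth is unknown. Differences are on this log2(value + 1) scale, which understates those of low genes. 1 row without a gene name was left out.

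Repeats (r above 0.95) were averaged, Cell_204 and profiles with Acan below 5 were left out, and the 44 highest and 44 lowest profiles by Fos were compared as means with SDs, without a test. Genes detected (back-transformed value of at least 1) in at least 20% of the 176 profiles were kept, and 1.5 was the difference that counts. Pairs were 1 to 1, within 1 log2 of Col10a1, with the largest number of pairs and then the smallest summed distance. The limit of 300 detected genes was set after the data were seen, and the regression was added then. The profiles and gene lists were chosen with earlier results of these data known. Genes named were the members of the immediate-early lists, the 15 highest and 15 lowest in the comparison of the groups and in the Col10a1 pairs, the 15 of highest rho with Fos, up to 4 members of each list and a fixed set of zone markers. Other names, among them Junb, Ptgs2, some list members given as examples, the genes shown by Col10a1 level and those of the promoter windows, were chosen after their values were seen. Promoter windows came from RefSeq (GRCm38.p6). There were 187 distinct profiles, 176 of them chondrocyte profiles. The steps were tested on simulated data. Alternatives were other limits of the ranking, Atf3 as the ranking gene, other Acan minimums, repeats kept apart, Cell_204 kept, other filters, another pseudocount, upper-quartile scaling, leaving out shallow profiles, another detection limit and other ways of matching. The tools were SciPy 1.17.1, NumPy 2.4.6, matplotlib 3.10.9 and pandas 2.3.3 under Python 3.11.15.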

Additional observations from a re-analysis of the deposited data

How the results depend on the processing

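No paired analysis was possible because the cells carry no replicate numbers. There were 91 alternatives for the shares of genes, list medians, Col10a1 and detected genes. Of these, 54 stayed within 1.5 times (counts and shares of genes) or the spread between repeats (other values), and 37 did not. Shares of genes cannot change sign, and none of the other values did. Some of the 54 stayed by construction: the filter enters neither Col10a1 nor detected genes, and the pseudocount does not enter detected genes. Between the groups 4.98% of genes were higher and 0.335% lower, and in the Col10a1 pairs 3.05% and 0.483%. With 58 profiles a side these were 2.19% and 0.13%, and 1.36% and 0.149% in pairs, with 572 more detected genes in the Fos-high profiles. With 17 profiles a side they were 17.2% and 1.34%, with an immediate-early median of 1.64, a Col10a1 difference of 5.41 and 1060.6 more detected genes. Ranked by Atf3, 2.97% were higher, Col10a1 differed by 4.57 and detected genes by 560.6, and Adpgk (0.26), Cyr61 (-0.052) and F3 (0.58) changed sign. Without a filter 2.8% were higher and 0.185% lower, and among genes detected in most profiles 0.654% were lower, shares of more and of fewer genes. An Acan minimum of 8 gave 0.552% lower genes. With a pseudocount of 0.1, 19.6% were higher and 1.26% lower, 14.3% and 2.21% in pairs, the immediate-early median was 1.49 and Col10a1 differed by 4.59. Upper-quartile scaling gave 12% and 0.112%, 9% and 0.279% in pairs, a Col10a1 difference of 4.88 and 787.2 more detected genes. These last settings move the median of all genes from 0.39 to 0.69 and 0.68, so the shares of higher and lower genes depend on the scaling, and a difference is read against that median. Leaving out the profiles with the fewest detected genes gave 0.685% lower genes and 552.4 more detected genes. Lower genes at matched Col10a1 made up 1.06% with pairs within 0.5, 0.149% by regression on Col10a1 alone, 0.204% by strata of Col10a1 and 2.57% in pairs matched also on detected genes. The regression on both, added after the data were seen, gave 0.725% higher and 1.26% lower genes. There the NF-κB list median was -0.039, and in the pairs on both the S phase median was -0.029. Of 2381 alternatives for single genes and lists, 1693 stayed within the spread between repeats, 683 moved and 5 reversed, those given here. The 1693 include every gene and list under the settings that changed only the filter. The filter does not enter these values, so they stayed by construction. Reversed means a change of sign of a difference of at least 1.5 for a gene or 0.5 for a list, a limit set after the data were seen. Counting values of any size, 98 changed sign, among them the heat shock (-0.29) and actin and SRF-MRTF (-0.21) medians in the pairs on both. The cause of these shifts was not tested. With no animal named, spread between animals cannot be seen, and a gene at 0 in a profile may have been missed.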

Other observations

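The 11 profiles below the Acan minimum, which entered no comparison, also held immediate-early RNA. Fos was detected in 8 of 11 and ran from 0 through a median of 6.51 to 11.20. Dusp1 was detected in 10 (median 7.91), Fosb in all 11 (median 5.68) and Atf3 in 9 (median 6.85). Egr1 was detected in 7, with a median of 8.39. Most of these profiles carried osteoblast genes: Ibsp was detected in 9 (median 12.88) and Col1a1 in 8 (median 12.33), while Col10a1 was detected in 2. Id3 was detected in 6 of the 11, with a median of 8.15, and F3 in 1.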
